A study of Mus musculus with 6 samples.

Results

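The growth hormone, STAT5 and IGF axis was followed in mouse liver through 10 genes: the growth hormone receptor gene Ghr, the transcription factor genes Stat5a and Stat5b, the secreted products Igf1, Igfals, Igfbp2 and Igfbp3, and the signal-regulated genes Socs2, Cish and Bcl6. They were chosen by name, and their probes were found through the RefSeq accession printed beside each probe. All 10 genes were on the array, among 37074 genes in all, and were read by 18 probes on 31 spots. All were well above background on all 6 arrays and were among the 22342 genes that were tested. Total liver RNA of male mice was compared between WT mice and L1-Tg mice on 3 arrays per genotype. L1-Tg mice were hemizygous for human NPC1L1, a sterol transporter, under the APOE promoter (line B6;D2-Tg(APOE-NPC1L1)20Lqyu/J), which drives it in hepatocytes. The line had been crossed back to C57BL/6J for at least 8 generations, and the WT mice were littermates of the transgenic mice. All mice received the control-fat diet (CFD) and were kept in 12 h of light and 12 h of dark, and each array held RNA pooled from 2 or 3 mice. The data thus stand for 1 transgenic line, and p-values measure the spread between pools.

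In the liver, growth hormone from the pituitary binds its receptor on hepatocytes, and the receptor's partner kinase JAK2 then phosphorylates STAT5A and STAT5B. These factors move to the nucleus, where they raise Igf1, Igfals, Socs2 and Cish and repress Bcl6. SOCS2 and CIS, the product of Cish, damp the receptor in turn, and BCL6 is a repressor that can sit on STAT5 sites. IGF1 made in the liver circulates bound to IGFBP3 and the acid-labile subunit encoded by Igfals, while IGFBP2 carries IGF1 in smaller complexes. Growth hormone arrives in pulses in male rodents and more evenly in females, and this difference sets much of the sex bias of liver genes.

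Levels are given here as multiples of the array's 75th percentile of signal, and differences as log2 of L1-Tg minus log2 of WT. The 75th percentile lay between 296 and 378 intensity units, 53.1% to 59.2% of spots were well above background and no spot was saturated. Arrays of 1 group correlated over all tested genes with r from 0.985 to 0.994, and arrays of different groups with r from 0.979 to 0.992. Row 1 of the slide held the WT arrays and row 2 the L1-Tg arrays, and slide row and genotype cannot be told apart. L1-Tg replicate 2 stood apart in 6 pancreas genes, whose summed level was 91.9 there and between 9.93 and 11.4 on the other 5 arrays, and the differences of the axis genes are also given without it where they moved by over 1.5 times. The mouse Npc1l1 probe was dim, with 1 L1-Tg and 2 WT arrays above background, and whether it reads the human transcript could not be checked without probe sequences, so it does not check the genotype labels. In limma's test 29 of 22342 genes passed an adjusted p of 0.05, 27 higher and 2 lower in L1-Tg mice, which is 0.13%.

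None of the 10 axis genes passed the adjusted threshold. Igf1 and Igfbp2 were lower on every L1-Tg array than on any WT array, a separation that 15.9% of all tested genes showed in 1 direction or the other. Igfals was lower in the mean with groups that overlapped, and Igfbp3 was higher in the mean. The receptor and both Stat5 genes lay close together in the genotypes. The signal-regulated genes Socs2, Cish and Bcl6 spread so widely between pools of 1 genotype that the 95% intervals of their differences ran from below to above 0.

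**Figure D1:**
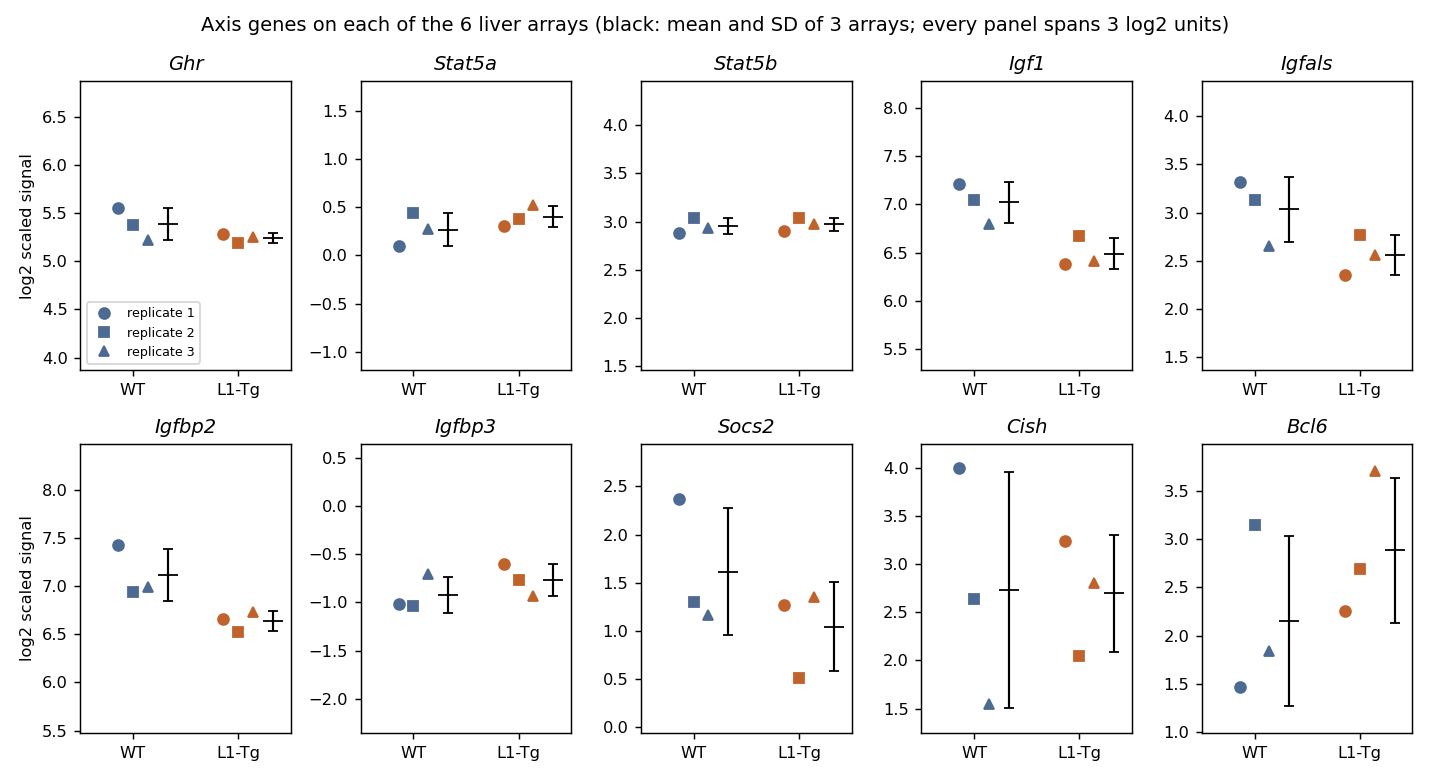
Level of each axis gene on each array (y axis: log2 of the signal over the array's 75th percentile; x axis: genotype; marker shape: replicate number), with the mean and SD of 3 arrays in black and the same 3-unit span in every panel. The WT and L1-Tg points are apart for Igf1 and Igfbp2 and overlap for the other 8 genes, and the points of Cish and Bcl6 are the most spread.

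Ghr encodes the receptor that senses growth hormone. Its level was 47.0, 41.6 and 37.4 times the array's 75th percentile in WT replicates 1, 2 and 3 and 38.9, 36.4 and 38.1 times in L1-Tg replicates 1, 2 and 3. WT replicate 3 lay within the L1-Tg range, and the log2 difference was -0.15 (95% interval -0.42 to 0.12, limma adjusted p = 0.680). It was -0.06 without WT replicate 1 and -0.23 without WT replicate 3. A second Ghr probe, designed to another RefSeq transcript of the gene, gave -0.01. The ratio of the 2 probes within an array did not separate the genotypes (difference -0.14 in log2, exact permutation p = 0.5, two-sided). With 3 arrays against 3 that test cannot go below 0.1.

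Of the transducers, Stat5b had the smallest SD between pools of all 10 genes. Stat5b, the main STAT5 gene of the liver, stood at 7.39, 8.22 and 7.65 times the 75th percentile in the WT arrays and at 7.46, 8.22 and 7.86 times in the L1-Tg arrays. The groups overlapped fully, the log2 difference was 0.02 (95% interval -0.21 to 0.24, limma adjusted p = 0.964), and a second probe gave 0.05. Without L1-Tg replicate 2 or without WT replicate 1 the Stat5b difference was -0.02. Stat5a, the close relative of Stat5b on the same chromosome, stood at 1.07, 1.36 and 1.21 times the 75th percentile in the WT arrays and at 1.23, 1.30 and 1.44 times in the L1-Tg arrays. Its log2 difference of 0.13 had a 95% interval of -0.16 to 0.43 (limma adjusted p = 0.729). It was 0.05 without WT replicate 1, 0.07 without L1-Tg replicate 3 and 0.22 without WT replicate 2. The intervals leave room for a Stat5b change of up to 1.18-fold upwards, and for Stat5a of up to 1.35-fold.

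Igf1, the hormone through which growth hormone acts on much of the body, had levels of 148, 132 and 111 times the 75th percentile in WT replicates 1 to 3. In L1-Tg replicates 1 to 3 the levels were 83.5, 102 and 85.3 times. All 3 L1-Tg arrays were thus below the lowest WT array. The geometric mean of the L1-Tg arrays was 0.692 of that of the WT arrays (95% interval 0.544 to 0.881). The log2 difference was -0.53 ± 0.14 (SE, 3 arrays per group), with an unadjusted limma p of 0.00937 and an adjusted p of 0.446 over all genes. Among the 22342 genes Igf1 ranked 469th by p. Over 18 other settings of scaling, filter, probe choice, test and left-out array, the difference stayed between -0.64 and -0.39 with an unadjusted limma p of at most 0.0438, and the adjusted p was never below 0.222. Without L1-Tg replicate 2 it was -0.62.

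**Figure D2:**
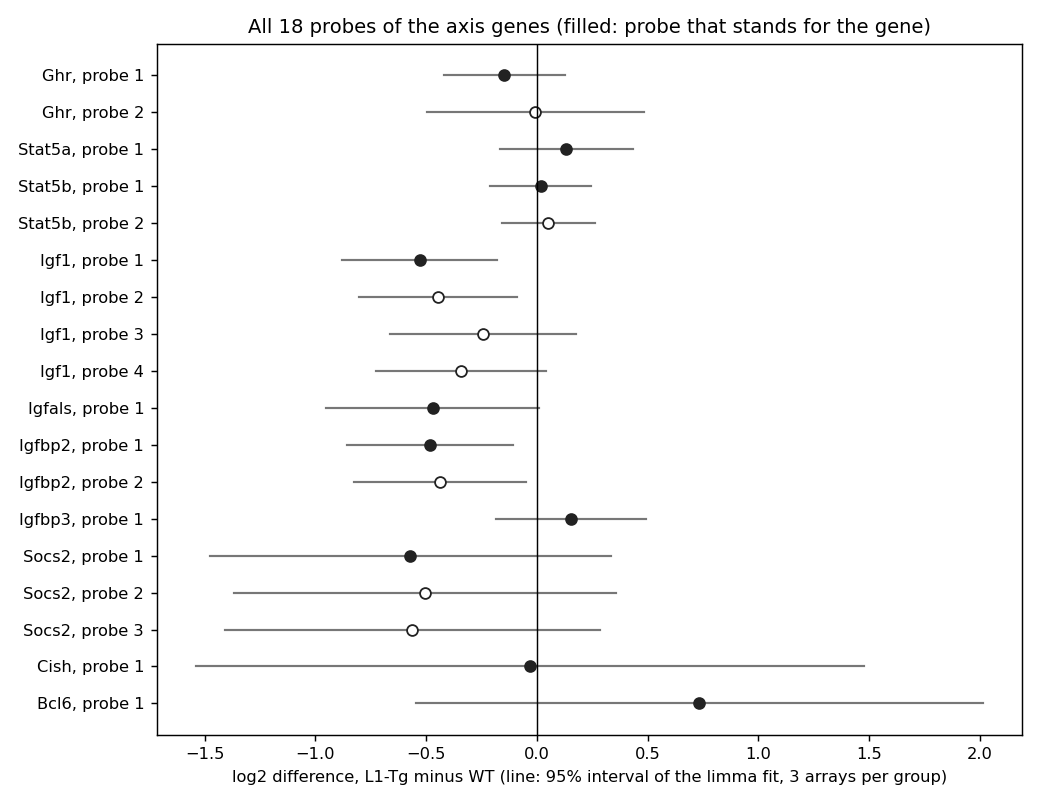
Log2 difference, L1-Tg minus WT, of each of the 18 probes of the axis genes (x axis), with the 95% interval of the limma fit as a line, and filled circles for the probe with the highest mean signal of its gene. All 4 Igf1 probes lie below 0, from -0.53 to -0.24, and the 3 Socs2 probes lie between -0.57 and -0.51.

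Igf1 was read by 4 probes of 2 spots each, all assigned to the same transcript record. From the brightest to the dimmest they gave log2 differences of -0.53, -0.45, -0.24 and -0.34. The groups did not overlap for the first 2 and overlapped for the other 2, whose 95% intervals reached 0.18 and 0.04. Spots of 1 probe differed little, with an SD between 0.02 and 0.12 in log2. The log2 ratio of the first to the third probe was 2.25 ± 0.06 in WT and 1.96 ± 0.07 in L1-Tg arrays (SD, n = 3 each). This pair was chosen after the values were seen, and its exact permutation p of 0.1 is the smallest that 3 arrays against 3 allow, so the test could not pass 0.05. Averaging all 4 probes gave the -0.39 named above.

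Igfals encodes the acid-labile subunit, which holds IGF1 and IGFBP3 in the large serum complex. Its level was 9.93, 8.77 and 6.29 times the 75th percentile in the WT arrays and 5.12, 6.80 and 5.91 times in the L1-Tg arrays. WT replicate 3 fell inside the L1-Tg range, and the log2 difference was -0.47 (95% interval -0.95 to 0.01, adjusted p = 0.561 in limma). Leaving out WT replicate 3 gave -0.66 and leaving out WT replicate 1 gave -0.33.

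Igfbp2, the binding protein of the smaller complexes, stood at 172, 123 and 127 times the 75th percentile in the WT arrays and at 101, 91.9 and 106 times in the L1-Tg arrays. All L1-Tg arrays were below all WT arrays. The geometric mean of the L1-Tg arrays was 0.716 of that of the WT arrays (95% interval 0.553 to 0.928). The log2 difference was -0.48 ± 0.16 (SE, 3 arrays per group) with an unadjusted limma p of 0.0193 and an adjusted p of 0.498. A second Igfbp2 probe gave -0.44, again with groups that did not overlap. The unadjusted limma p was under 0.05 in 15 of the same 18 settings, and the difference was -0.33 without WT replicate 1. Igfbp3, the carrier within the large complex and in the liver largely a product of cells other than hepatocytes, went the other way in its mean. It stood at 0.494, 0.486 and 0.613 times the 75th percentile in the WT arrays and at 0.660, 0.587 and 0.525 times in the L1-Tg arrays, and the log2 difference of 0.16 had a 95% interval of -0.18 to 0.49 (limma adjusted p = 0.723). With 1 array left out the Igfbp3 difference ran from 0.07, without L1-Tg replicate 1, to 0.26, without WT replicate 3, and it was 0.10 without WT replicate 2 and 0.24 without L1-Tg replicate 3.

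Igf1, Igfals and Igfbp2 kept log2 differences between -0.48 and -0.36 under quantile normalization, the array median, no scaling and the authors' normalized values. In 2 more scalings chosen after the data were seen, each array was set to 7 hepatocyte marker genes (Alb, Apoa1, Apob, Ttr, Tat, Cps1 and Serpinc1) in place of the 75th percentile. The first used the median level of the markers, which on all 6 arrays was the level of Apoa1, and the second the median of the markers after each was centred on its own mean. Under the first the differences of Igf1, Igfals and Igfbp2 were -0.04, 0.02 and 0.01, and under the second -0.42, -0.36 and -0.37. The first moved the median difference of all tested genes from -0.03 to 0.46 and the second to 0.08. Relative to Apoa1, which was itself 0.49 lower in log2 in the L1-Tg arrays, the 3 genes thus differed by at most 0.04 between the genotypes, in a scaling that moved all genes alike.

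**Figure D3:**
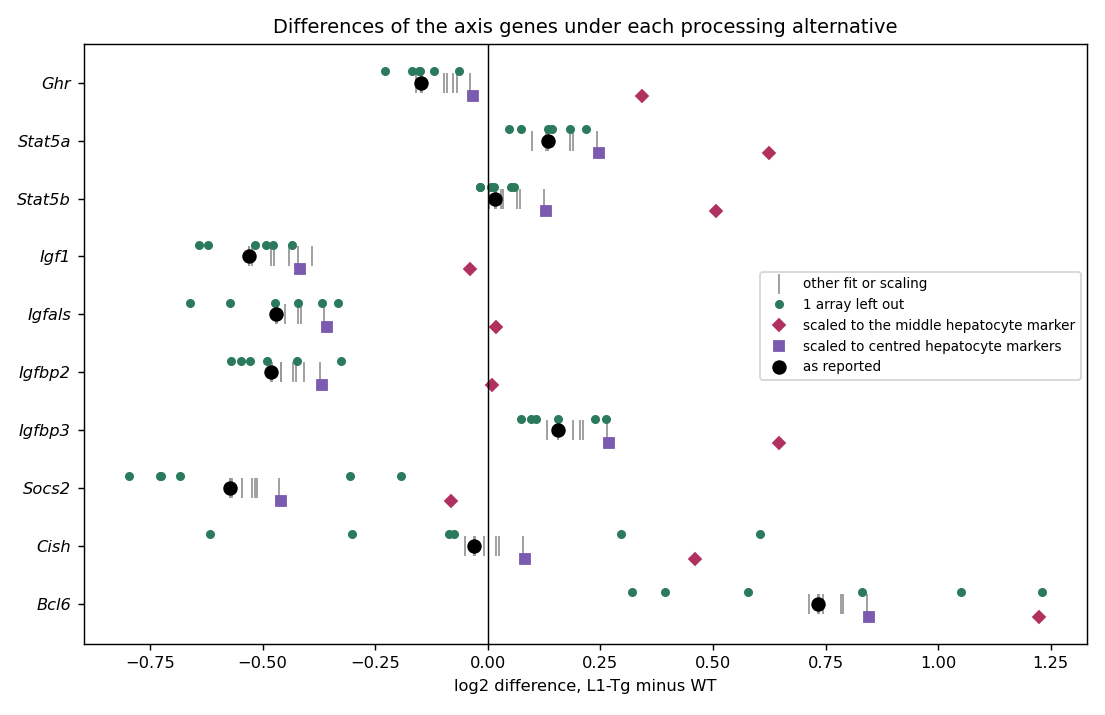
Log2 difference, L1-Tg minus WT, of each axis gene (x axis) as reported (black), under each other scaling, filter or fit (grey bars), with 1 array left out (green) and under the 2 hepatocyte scalings (diamonds and squares). Igf1, Igfals and Igfbp2 stay below 0 in all grey and green settings and reach -0.04, 0.02 and 0.01 when scaled to the middle hepatocyte marker, while left-out arrays move Cish from -0.62 to 0.60.

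Socs2 encodes the feedback inhibitor whose loss makes mice grow large. In the WT arrays it stood at 5.18, 2.47 and 2.25 times the 75th percentile and in the L1-Tg arrays at 2.40, 1.43 and 2.55 times. WT replicate 1 was the high value and L1-Tg replicate 2 the low one, and the other 4 arrays lay between 2.25 and 2.55. The log2 difference was -0.57 (95% interval -1.48 to 0.34, limma adjusted p = 0.655), the other 2 probes gave -0.51 and -0.56, and the 10 spots of the main probe agreed within an SD of 0.09 on each array. Without WT replicate 1 the difference was -0.19, and without L1-Tg replicate 2 it was -0.31.

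Cish, the fastest STAT5 target among these genes, stood at 15.9, 6.21 and 2.93 times the 75th percentile in the WT arrays. In the L1-Tg arrays it stood at 9.44, 4.12 and 7.01 times, inside the WT range. The log2 difference was -0.03 (95% interval -1.55 to 1.49, limma adjusted p = 0.991). It was 0.60 without WT replicate 1, 0.30 without L1-Tg replicate 2 and -0.62 without WT replicate 3, so its sign rests on single pools.

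Bcl6, which STAT5 represses, stood at 2.77, 8.83 and 3.58 times the 75th percentile in the WT arrays and at 4.76, 6.46 and 13.1 times in the L1-Tg arrays. L1-Tg replicate 3 was the highest and WT replicate 1 the lowest, and the groups overlapped. The log2 difference of 0.73 had a 95% interval of -0.56 to 2.03 (limma adjusted p = 0.675), and it was 0.32 without L1-Tg replicate 3 and 1.23 without WT replicate 2. WT replicate 1, the highest array for Cish and Socs2, was the lowest for Bcl6. The other arrays did not all follow this order. On L1-Tg replicate 3, the highest for Bcl6, Socs2 stood at 2.55 and Cish at 7.01 times the 75th percentile. WT replicate 3, the lowest for Cish, stood at 3.58 times for Bcl6, below WT replicate 2 at 8.83 times. The SD within groups was larger for Cish, Bcl6 and Socs2 than for 98.6%, 97.8% and 94.6% of the tested genes, whereas for Stat5b it was larger than for 8.94%. The median SD over all tested genes was 0.17 in log2.

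STAT5 binds a palindrome with a 3-letter spacer, TTCNNNGAA, which reads the same on both strands. It was searched in RefSeq promoter windows of 250 bases before and 50 bases after each transcript start (build GRCm38.p6), where 9 of the 10 genes had at least 1 window and Socs2 had none. The motif was in 3 of these 9 genes, Cish, Bcl6 and Igfals, and in 5 of their 16 windows, beside 8.30% of all 32851 windows and 9.55% of 27025 genes. All matches in the axis genes are shown, and capitals mark the motif. No match was found in the windows of Igf1 or Igfbp2.
Cish, chr9:107296649-107296678, plus strand: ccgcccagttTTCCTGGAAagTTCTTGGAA
Bcl6, chr16:23988952-23988980, minus strand: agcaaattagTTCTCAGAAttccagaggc
Bcl6, chr16:23981433-23981461, minus strand: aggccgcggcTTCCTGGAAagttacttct
Bcl6, chr16:23981387-23981415, minus strand: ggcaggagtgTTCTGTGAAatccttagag
Bcl6, chr16:23981353-23981381, minus strand: atcgactacgTTCCGGGAAtgagagggct
Igfals, chr17:24877598-24877626, plus strand: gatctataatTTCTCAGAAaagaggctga
Igfals, chr17:24878163-24878191, plus strand: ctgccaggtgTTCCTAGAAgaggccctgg
The Cish run holds a pair of motifs 11 bases apart, the first of which begins at the annotated start. The Bcl6 matches lie 118 bases before 1 annotated start and 168, 122 and 88 bases before another, and the Igfals matches lie 236 and 58 bases before 2 of its 3 starts. A match is a string of letters and was not tested for binding.

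The counts for the axis rest on few genes and are given beside those of all tested genes. Of the 10 genes 4 had the higher mean in L1-Tg and 6 in WT arrays, while 42.8% of the tested genes had the higher mean in L1-Tg arrays. Their median log2 difference was -0.09, beside -0.03 over all tested genes. An unadjusted limma p under 0.05 was found for 2 of 10, Igf1 and Igfbp2, both lower. Over all genes 8.88% were past that value, 4.51% higher and 4.38% lower. The groups did not overlap for the same 2 genes, beside 7.21% of all genes that were higher and 8.69% that were lower without overlap. The study's difference index, the difference of the group means over the sum of the group SDs on the linear scale, passed 0.7 in size for 3 of 10, with -1.40 for Igf1, -1.18 for Igfbp2 and -0.88 for Igfals. That threshold was passed by 26.5% of all tested genes, 11.7% higher and 14.9% lower.

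Around the axis, 34 further genes of growth hormone and IGF signalling were listed, among them kinases, phosphatases, receptors, other SOCS genes and IGF binding proteins. Of these, 27 were tested, 12 with the higher and 15 with the lower mean in L1-Tg arrays. None passed the adjusted threshold in limma and none had an unadjusted p under 0.05, and the median difference was -0.01. Igf2, Stc1 and Stc2 were not well above background on any array. Jak2, the receptor's kinase, differed by -0.06 (95% interval -0.45 to 0.34).

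The pathway genes with the smallest p were all lower in the mean of L1-Tg arrays. Irs2, an adaptor of insulin and IGF receptors, differed by -0.24 (95% interval -0.50 to 0.02) with groups that did not overlap. Igfbp4, another binding protein, differed by -0.23 (95% interval -0.52 to 0.05), Prlr, the prolactin receptor, by -0.35 (-0.82 to 0.12) and Sh2b1, an adaptor of JAK2, by -0.16 (-0.40 to 0.07), the last with groups that did not overlap. Their limma adjusted p lay between 0.576 and 0.639. Socs1 and Socs3, inhibitors of cytokine signals, differed by 0.44 and -0.32, with 95% intervals that held 0. Igfbp1, which insulin lowers and fasting raises, differed by 0.69 with an interval from -0.83 to 2.21, and Igf1r, the receptor of IGF1, by 0.10 (-0.27 to 0.46).

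Genes with a sex bias in mouse liver read the pattern of growth hormone pulses. Of 19 tested genes that are higher in male liver, 7 had the higher and 12 the lower mean in L1-Tg arrays, with a median of -0.10. None passed the adjusted threshold or had an unadjusted limma p under 0.05. Gstp1, a glutathione transferase, had the smallest p, with a log2 difference of -0.37 (95% interval -0.76 to 0.02, limma adjusted p = 0.564) and groups that did not overlap. Moxd1 differed by 1.02 and Mup3, a major urinary protein, by -0.18, each with an interval that held 0. Serpina12 was well above background on 3 L1-Tg arrays and 1 WT array, so its difference of 1.14 is set mostly against background and also had an interval that held 0. Mup20 differed by -0.10, Cyp7b1, an oxysterol hydroxylase, by -0.37 and Elovl3, a fatty acid elongase, by 0.33. Hsd3b5, a steroid dehydrogenase, had log2 levels of 5.68, 5.18 and 1.60 in WT replicates 1 to 3 and of 3.86, 3.82 and 3.64 in the L1-Tg arrays. WT replicate 3 was far below the other WT arrays for this gene, and its difference of -0.38 had an interval from -2.86 to 2.09.

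Among 19 tested genes that are higher in female liver, 10 had the higher and 9 the lower mean in L1-Tg arrays. None passed the adjusted threshold, the smallest adjusted limma p being 0.263, and 8 had an unadjusted p under 0.05, where 8.88% of all genes did, 6 of them higher in L1-Tg arrays. Of those 6, Slc22a27, Slc22a26, Cyp2b13 and Cyp2b9 were well above background on 0, 1, 2 and 2 of the 3 WT arrays and entered the test through the L1-Tg arrays, so the count is no measure of the list. For 7 of the 19, all L1-Tg arrays lay on 1 side of all WT arrays, as for 15.9% of all genes. Slc22a27, Cyp2b13 and Cyp2b9 were among the 7, so this count is no measure of the list either. Cyp2a4, a steroid hydroxylase, had log2 levels of 8.12, 7.96 and 8.49 in the WT arrays and of 9.07, 8.91 and 9.04 in the L1-Tg arrays. All L1-Tg arrays were higher, and the difference was 0.82 (95% interval 0.45 to 1.19, limma adjusted p = 0.268). Slc22a27, an organic anion transporter, was well above background on all 3 L1-Tg arrays and on no WT array. With WT values raised to the dimmest signal well above background on their array, the L1-Tg mean was 5.34 times the WT mean. This ratio of means carries no interval. The limma difference, against WT values at background, was 3.69 in log2 (95% interval 2.06 to 5.31, limma adjusted p = 0.263). As it was tested only because it was high in L1-Tg arrays, this p is given for completeness.

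The Cyp2b genes, whose products handle drugs and steroids, were dimmer and varied more. Cyp2b13 differed by 2.83 (95% interval 0.83 to 4.82) and Cyp2b9 by 2.57 (0.43 to 4.70), each with groups that did not overlap and with 2 of 3 WT arrays well above background. The other genes with an unadjusted limma p under 0.05 were, named after their values were seen, Cyp2b10 at 2.33, Slc22a26 and Acot3, an acyl-CoA thioesterase, at -0.62. The Slc22a26 difference of 1.64 is set against 1 WT array above background and 2 that were not. Ntrk2, a neurotrophin receptor, was lower as well, at -0.35. Cux2, a repressor typical of female liver, was above background on 2 arrays of each genotype and was not tested. Major urinary proteins, Cyp2b, Cyp2a, Cyp3a and Slc22a family genes have near-identical copies, so their probes may read more than 1 gene. Of the 14 female-biased genes well above background on all 6 arrays, 4 had an unadjusted limma p under 0.05. Cyp2a4 and Cyp2b10 were higher, and Acot3 and Ntrk2 were lower. The share of all genes with such a p was not computed under that filter, so this count has no comparator. With that filter the list's median was -0.05 in place of 0.08.

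**Figure D4:**
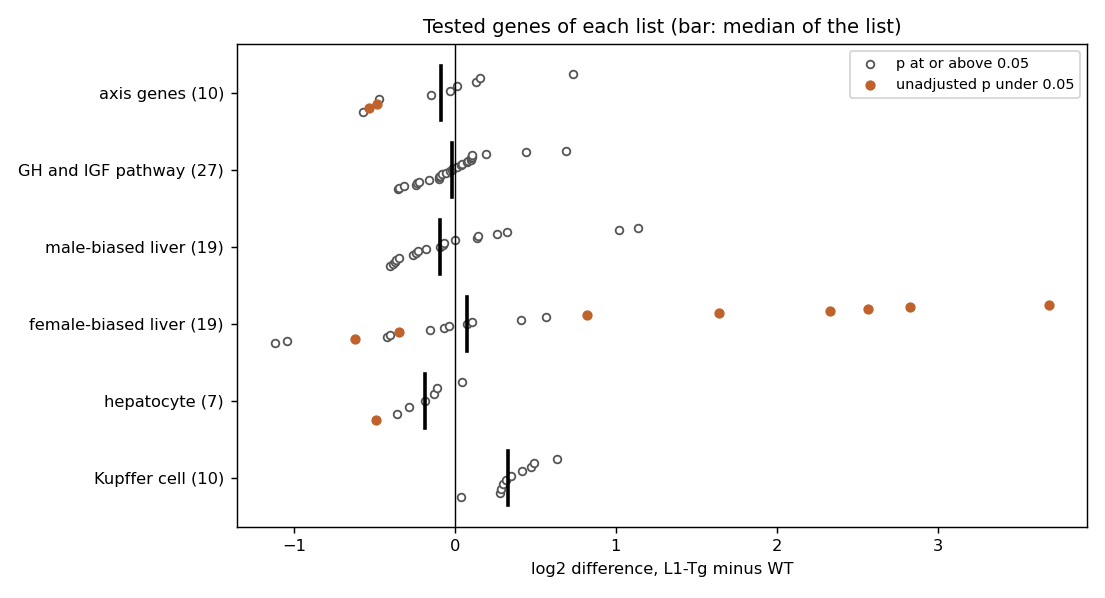
Log2 difference, L1-Tg minus WT (x axis), of each tested gene of 6 lists (rows, with the number tested), filled where the unadjusted limma p was under 0.05, with the list's median as a bar. The pathway and male-biased lists hold no filled point, the female-biased list holds 8, and all 10 Kupffer cell genes lie above 0.

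Markers of the cell types in liver were counted beside the axis genes, and none passed the adjusted threshold. In bulk RNA, fewer cells of a type and less RNA per cell cannot be told apart. All 10 Kupffer cell markers had the higher mean in L1-Tg arrays, with a median difference of 0.33 and none past an unadjusted limma p of 0.05. Their summed level ran from 172 to 201 in L1-Tg arrays and from 109 to 200 in WT arrays, and WT replicate 3 stood with the L1-Tg arrays. Of 7 hepatocyte markers, 6 had the lower mean in L1-Tg arrays, with a median of -0.18 and a summed level of 3247 to 3959 against 3676 to 4085. No marker of either list was at background on any array. On WT replicate 3 Igf1, Igfals and Igfbp2 were below their WT means while the Kupffer cell median was 0.51 above its own. Within each genotype, Igf1 and Igfals were higher the lower the Kupffer cell median of the array was. In WT replicates 1 to 3 that median was -0.40, -0.10 and 0.51, with log2 Igf1 at 7.21, 7.05 and 6.80. In L1-Tg replicates 1 to 3 it was 0.47, 0.25 and 0.43, with log2 Igf1 at 6.38, 6.67 and 6.41. Igfbp2 did not keep this order and was lower on WT replicate 2, where the median was -0.10, than on WT replicate 3. It was lowest on L1-Tg replicate 2, where that median was 0.25, the lowest of the L1-Tg arrays. The part of these markers in the differences of the axis genes was not tested.

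**Figure D5:**
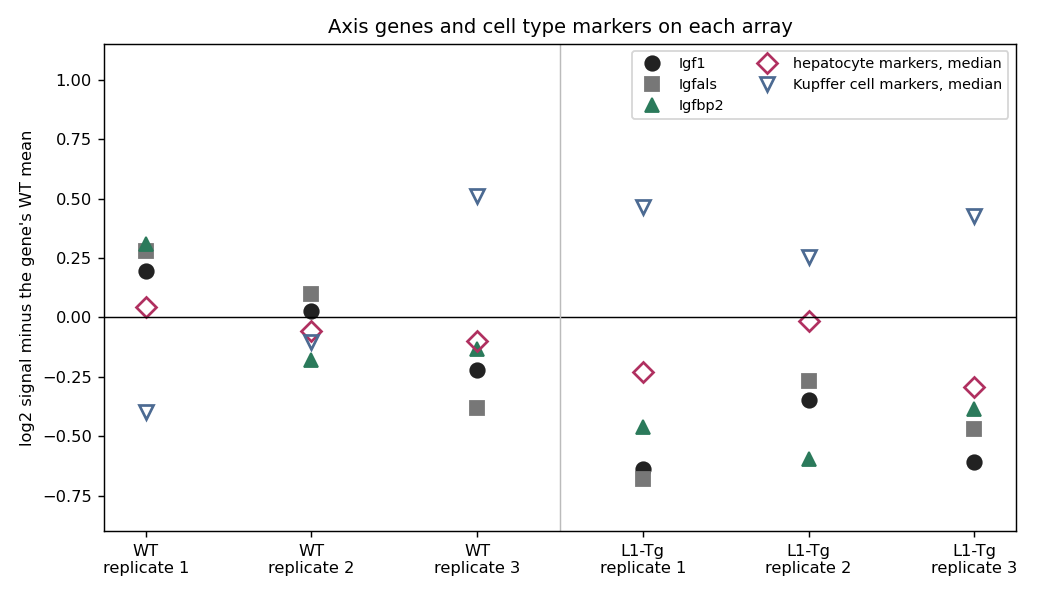
Log2 signal of Igf1, Igfals and Igfbp2 on each array, less the gene's WT mean (y axis), with the median of the same quantity over 7 hepatocyte and 10 Kupffer cell markers. Kupffer cell markers are high on the 3 L1-Tg arrays and on WT replicate 3, and the hepatocyte median is lowest on L1-Tg replicates 1 and 3.

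Fasting and time of day act on these genes too, and genes that follow them were counted in the same way. Per the study's methods, the mice ate ad libitum, and blood and bile were taken without fasting. Of 10 fasting-responsive genes 7 had the lower mean in L1-Tg arrays, 2 of them with an unadjusted limma p under 0.05, with a median of -0.32. Of 15 tested circadian clock genes 11 had the lower mean, 5 of them with such a p. Of 16 acute phase genes 15 had the higher mean, 2 of them with such a p, with a median of 0.18. Over all genes 4.38% were lower and 4.51% higher with such a p. No gene of these 3 lists had an adjusted limma p under 0.05, and their part in the differences of the axis genes was not tested.

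The most alike genes over the 6 arrays were sought for the 3 members with the smallest p, Igf1, Igfbp2 and Igfals. They were found by the mean absolute difference of log2 values centred on each gene's mean. For Igf1 they were Neurog1, Camkk2 and Slc25a13, at 0.06 log2 units each, where the median over all genes was 0.29. For Igfbp2 they were Slc43a1, 1810055G02Rik and Fzd8, and for Igfals they were Carmil1, Inhbc and N4bp2, at 0.05 to 0.07. Inhbc, a liver-made activin subunit, differed by -0.41 between the genotypes, beside -0.47 for Igfals. The genes were picked for likeness over these same 6 arrays, so a like genotype difference follows from the choice.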

How the data were processed

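Total RNA of mouse liver was labelled with Cy3 and hybridised to 1-color Agilent arrays, 3 per genotype. The authors processed the scans with Agilent Feature Extraction 10.10.1.1, per the file headers, and the deposited intensity of each spot is the linear processed signal, background-subtracted and not scaled between arrays. The deposited flags for well above background and non-uniform spots (other values, 0 or 1) were used as given, and the authors' matrix of normalized intensity values, in which every spot of an array is multiplied by the same factor, served as an alternative. The precision is limited by having 3 arrays per group.

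Control spots were left out, non-uniform spots were set to missing, log2 signals were reduced by log2 of the array's 75th percentile and spots of a probe were averaged. The brightest probe over the 6 arrays stood for its gene, and genes were kept for testing when all arrays of either group were well above background there. Two-sided moderated tests came from limma (version 3.58.1, functions lmFit and eBayes) under R (version 4.3.3), with Benjamini-Hochberg adjustment over 22342 genes at 0.05. The script was tested on simulated data. The difference index follows the study's methods. Of 28685 probes with a RefSeq accession 27235 were matched to a symbol, and the promoter sequences are RefSeq's of GRCm38.p6.

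The 10 genes and the gene lists were chosen with earlier results of these data known. Named genes were all 10 with all probes, the 4 with the smallest p of the pathway, male-biased and female-biased lists, 12 genes set by name, and the 3 most alike genes of the 3 members with the smallest p, and others named were chosen after their values were seen. A fit with the replicate number as a block was an alternative, since the deviations of same-numbered arrays correlated at -0.16, 0.11 and 0.02 and do not pair the arrays. Markers of sinusoidal endothelium, stellate cells, cholangiocytes, lymphocytes, neutrophils and erythroid cells were counted too: 5 of 8, 3 of 8, 2 of 4, 6 of 9, 4 of 4 and 3 of 3 tested genes had the higher mean in L1-Tg arrays.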

Additional observations from a re-analysis of the deposited data

How the results depend on the processing

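No axis gene passed the adjusted threshold under any of 18 other settings or the 2 hepatocyte scalings, which were chosen after seeing the data. Ghr, Stat5a, Igf1, Igfals, Igfbp2, Igfbp3, Socs2 and Bcl6 kept their direction under all 18. The Cish difference was 0.0789 with the array median, 0.0259 with no scaling, 0.0195 with the authors' normalized values, 0.46 and 0.0836 with the hepatocyte scalings, and between -0.62 and 0.60 with 1 array left out. Stat5b ranged from -0.0177 to 0.0593 with 1 array left out. Scaled to the middle hepatocyte marker, Ghr was 0.34, Igfals 0.0190 and Igfbp2 0.0091, and 216 genes were called. Under it 6 pathway and 6 male-biased genes had an unadjusted p under 0.05. That scaling moved the median of all tested genes to 0.46, and the share of all genes with such a p was not computed. These 2 counts are thus no measure of the lists. Apart from the hepatocyte scalings, the array median moved all genes most, from a median of -0.03 to 0.08.

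The median difference of the 10 axis genes was 0.0202 with the array median, 0.40 and 0.0249 with the hepatocyte scalings, and from -0.39 to -0.0403 with 1 array left out. An unadjusted p under 0.05 was found for 1 of them with the array median, for 1 with centred markers and for 2 to 3 with 1 array left out. Their groups did not overlap for 1 gene with the array median, for 1 with all probes averaged and for 2 to 5 with 1 array left out, the 5 without WT replicate 3, where 5 also passed the index. The index passed 2 to 5 with 1 array left out. The share of all genes was not computed under these settings, and with 1 array left out groups separate more readily. These counts therefore have no comparator. Genes called in all were 10 with no filter on dim probes, 19 with all probes averaged, 0 with the ordinary linear model, 11 with the replicate block and 15 to 36 with 1 array left out.

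The pathway list held 1 gene with an unadjusted p under 0.05 with an intensity trend, and 0 to 1 with 1 array left out. Its median was 0.0092 with quantile normalization, 0.0941 with the array median, 0.0411 with no scaling, 0.0347 with the authors' values, 0.48 and 0.0988 with the hepatocyte scalings, and -0.0716 to 0.0132 with 1 array left out. The male-biased list held 1 such gene with normexp, 1 with the trend, 2 with the replicate block and 0 to 4 with 1 array left out. Its median was 0.0136 with the array median, 0.40 and 0.0183 with the hepatocyte scalings, and -0.21 to 0.00024 with 1 array left out. The female-biased list held 4 such genes with the filter on all arrays, 3 with the ordinary linear model and 4 to 10 with 1 array left out. Its median of 0.08 was -0.0524 with the filter on all arrays and with no filter, 0.57 and 0.19 with the hepatocyte scalings, and 0.0066 to 0.34 with 1 array left out, the lowest without L1-Tg replicate 3 and the highest without WT replicate 1. The share of all genes was not computed under these settings, so the counts of the 3 lists have no comparator. The cause of these changes was not tested.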
